A study of Rattus norvegicus with 17 samples.

Results

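The genes of the cytosolic ribosomal proteins were followed in CD4+ T cells of rats fed 3 levels of vitamin D. They were found by symbol: array rows annotated to exactly 1 gene whose symbol starts with Rpl or Rps and a digit, or is Rplp0, Rplp1, Rplp2 or Rpsa, without the Rps6k kinases. The rule gave 74 of the 14506 genes with 1 symbol, on 262 of the 29214 array rows, and each gene was read from its row with the highest mean. Rps19bp1, which encodes a binding partner of a ribosomal protein, and the pseudogene Rpl17-ps16 meet the rule by spelling alone. They are left out below, which leaves 72 genes, 45 of the large and 27 of the small subunit. All 74 were bright enough to be tested among 10879 genes.

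The rats were females of the inbred Dark Agouti strain, and the cells were taken from their inguinal lymph nodes 7 days after immunization with myelin oligodendrocyte glycoprotein (MOG), which starts an experimental model of multiple sclerosis. All rats of all groups were immunized. The deprived diet held 0 IU of vitamin D (5 arrays, replicates 2 to 6), the regular diet 2 IU (6 arrays) and the supplemented diet 10 IU (6 arrays), fed from 5 weeks before immunization to the end. The values are log2 array signals, so a difference of 1 is a doubling. The sources used here give neither the age of the rats nor the amount of feed that the IU refer to. The labels call the replicates biological, without saying whether a sample is 1 rat or a pool.

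Each ribosome is built from ribosomal RNA and one copy of nearly every ribosomal protein, so these proteins are made in step. Their mRNAs belong to the 5' TOP class, which starts with a C and a run of pyrimidines and is translated or held back as a group in response to the growth-sensing kinase mTOR. Resting T cells carry few ribosomes, and activation by antigen is known to raise ribosome synthesis before the cells divide.

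The start of these genes is shown first, because the pyrimidine run is the sequence feature that the family is known to share. RefSeq promoters of the rat assembly GRCr8 were matched for 59 of the 72 genes. Each line gives 30 bases in the direction of transcription, 10 before the annotated start and 20 from it, with the pyrimidine run that begins with C in capitals. Rpl27a, Rps27, Rplp0 and Rpl19 were lower on the supplemented diet. Rps7, Rpl31 and Rpl35a did not pass there. Rpsa, Rpl11, Rpl6, Rps14 and Rps3 fell further than Rpl27a and are not shown. Of these, Rps14 had such a run and the others had none in their windows. Rpl22 and its paralogue Rpl22l1 are set side by side.
Rpl27a, chr1:172974563-172974592, plus strand: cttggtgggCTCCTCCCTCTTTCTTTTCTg
Rps27, chr2:177964587-177964616, minus strand: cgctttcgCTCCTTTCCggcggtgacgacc
Rplp0, chr12:46718371-46718400, minus strand: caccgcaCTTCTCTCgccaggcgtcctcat
Rpl19, chr10:83519054-83519083, plus strand: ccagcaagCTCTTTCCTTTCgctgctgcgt
Rps7, chr6:50999426-50999455, minus strand: agagctgtgtCTCTTTCTaagccggcactc
Rpl31, chr9:49143101-49143130, plus strand: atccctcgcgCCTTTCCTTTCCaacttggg
Rpl35a, chr11:81235002-81235031, minus strand: tcttgCCTTCCTCTTTCCgccatcttggcg
Rpl22, chr5:168117951-168117980, plus strand: gcgCCCCCCTCCCTTTCTgcctcctctgcc
Rpl22l1, chr2:113683186-113683215, plus strand: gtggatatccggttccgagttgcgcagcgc

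A C at the annotated start followed by at least 4 C or T was present in 22 of the 59 genes (37.3%), against 2.63% of all 33469 promoters of the table. With the run allowed to begin within 10 bases of the annotated start on either side, it was present in 44 of the 59 (74.6%), against 28.9% of all promoters. Rpl22l1 had no such run in its window, whereas Rpl22 had one across the start. On either strand of the 250 bases before and 50 bases after the start, the ETS core CCGGAAG was found in 18 genes (30.5%, against 8.75% of all promoters). The YY1 sequence AAGATGGCG was found in 3 genes (5.08%, against 1.73%), and TATAAA in 7 (11.9%, against 14.2%). The genes with a run near the start had a median difference between supplemented and regular diets of -0.25, and the 15 without one a median of -0.36. Of the former 35 of 44 were lower in the deposited values, and of the latter 12 of 15. In the same values 22.9% of all genes and 52.6% of the 2719 brightest genes were lower. The fall in these values was thus not limited to genes whose annotated start carries the run. These 2 counts were not repeated after the other normalizations given below, which left 30 and 23 of the 72 genes lower.

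On the supplemented diet, 60 of the 72 ribosomal protein genes fell against the regular diet and 0 rose. The median difference was -0.27, a fall by 17%. On the deprived diet 0 passed in either direction, with a median of 0.018. The test was limma's moderated test over all 10879 genes with Benjamini-Hochberg adjustment and a threshold of 0.05. Of all genes tested, 22.9% were lower and 10.8% higher on the supplemented than the regular diet, with a median difference of 0.00061. Counted with the 2 genes left out above, 60 of 74 were lower.

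The ribosomal protein genes are among the brightest on the array, and bright genes as a class were lower in the supplemented arrays. Of the 72 genes, 71 lay among the brightest 25% of genes, where 52.6% of 2719 genes were lower and the median difference was -0.21. Among genes with a mean of 10 to 11, 5 of 5 ribosomal protein genes and 55.3% of 403 others were lower. Between 11 and 12 it was 22 of 24 against 56.3% of 119 others, with medians of -0.32 and -0.19. Above 12 it was 29 of 39 against 35% of 20 others, with medians of -0.22 and -0.095. In each of these bins the share lower was larger for the ribosomal protein genes, a description with no test. Across all 10879 genes the difference fell with signal (r = -0.51), while across the 72 genes it ran the other way (r = 0.45), so that the dimmer ribosomal protein rows fell more. Genes share their arrays and are not independent replicates, so no p is given for either correlation.

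**Figure D1:**
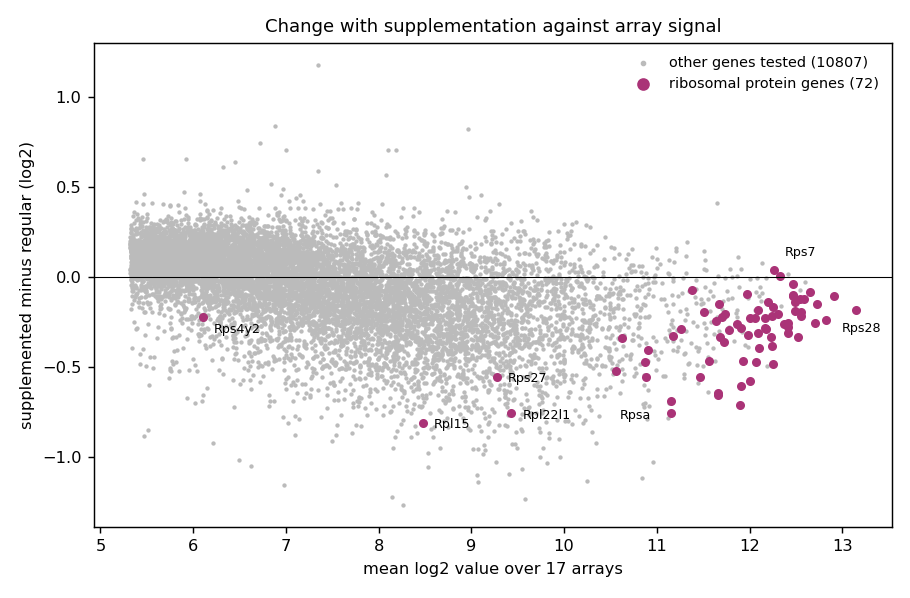
Difference between supplemented and regular diets (log2, vertical axis) against the mean log2 value over 17 arrays (horizontal axis) for the 72 ribosomal protein genes and the other genes tested. The ribosomal protein genes sit at the bright end and mostly below 0, with Rpl15, Rpl22l1 and Rps27 dimmer and lower than most and Rps4y2 apart at a mean of 6.10.

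Averaged over the 72 genes, the arrays of the regular diet had a mean log2 value of 11.91 ± 0.05 (SD, n = 6), those of the deprived diet 11.91 ± 0.07 (SD, n = 5) and those of the supplemented diet 11.60 ± 0.08 (SD, n = 6). The deprived arrays read 11.97, 11.95, 11.95, 11.81 and 11.86 for replicates 2 to 6. The regular arrays ran from 11.85 to 11.98 with a median of 11.91, and the supplemented arrays from 11.48 to 11.69 with a median of 11.62. All supplemented arrays thus lay below all arrays of both other diets, and the deprived and regular arrays overlapped. Supplemented replicate 2 held the lowest supplemented value for 32 of the 72 genes and replicate 5 for 16. In the deprived group, replicates 5 and 6 lay below replicates 2, 3 and 4 for 57 genes.

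Other measures moved with this mean. The other genes of the brightest 25% averaged 9.52 on the deprived, 9.44 on the regular and 9.22 on the supplemented diet. The spread of an array, the SD of its log2 values, was 2.001 to 2.063 on the regular and 1.908 to 1.972 on the supplemented diet, without overlap. Over the 17 arrays, the deviations of the member mean and of the spread from their diet means correlated with r = 0.84, a description, since both come from the same normalized arrays. With the spread as a covariate, the median of the members was -0.094 and 0 of them passed, as did 0 of all genes; 7 members and 1192 genes had an unadjusted p under 0.05. Since the spreads of these diets do not overlap, spread and diet can hardly be told apart in that fit.

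**Figure D2:**
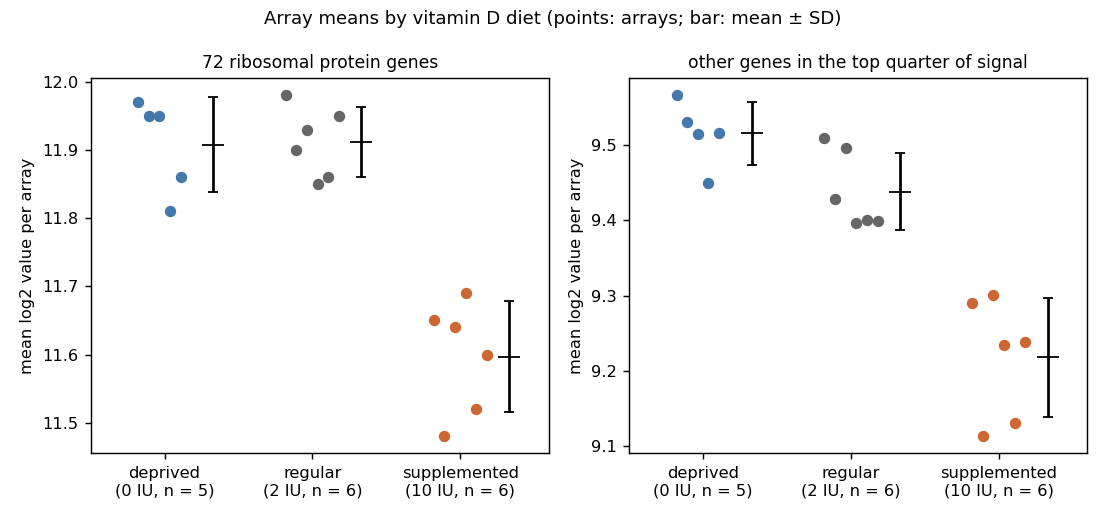
Mean log2 value per array of the 72 ribosomal protein genes (left) and of the other genes among the brightest 25% (right), by diet; points are arrays and bars are mean ± SD. On the left the 6 supplemented arrays, 11.48 to 11.69, lie below all others; on the right the regular group also lies below the deprived group on average.

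The labelled cell type was checked against its markers. The T cell genes Cd3g, Cd3d, Cd3e and Cd4 had mean values of 12.12, 11.83, 10.59 and 9.95, each above the 95th percentile of genes with 1 symbol. Averaged over 10 CD4 T cell markers, arrays ran from 10.49 to 10.66 on the regular and 10.44 to 10.66 on the deprived diet. Supplemented arrays ran from 10.18 to 10.45, and 5 of the 10 markers were lower on the supplemented than the regular diet. All 10 lay among the 2719 brightest genes tested, of which 52.6% were lower, a similar share. The mean of 7 B cell markers ran from 5.74 to 6.15 on the regular, 5.82 to 5.95 on the deprived and 5.94 to 6.33 on the supplemented diet, and 3 of 5 tested were higher. The mean of 11 myeloid markers ran from 5.56 to 5.75, 5.50 to 5.77 and 5.69 to 5.84 in the same order, and 2 of 8 tested were higher. Among 6 tested CD8 T and NK cell genes 1 was lower and 1 higher, as among 6 stromal and endothelial genes. Of all genes tested, 22.9% were lower and 10.8% higher on the supplemented than the regular diet. Outside the ribosomal protein genes, 399 of 2196 genes with a mean under 6 were higher, and 491 of 3046 with a mean of 6 to 7. The marker counts were not tested against these shares. Most of these markers of other cells gave dim signals, with Ms4a1, Fcer2, Itgam, S100a8 and S100a9 below the level needed for testing, and their part in the fall of the ribosomal protein genes was not tested. In bulk samples, fewer cells of a type and less RNA per cell cannot be told apart.

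Large subunit genes had a median difference of -0.28 between supplemented and regular diets, with 38 of 45 lower. Small subunit genes had -0.23, with 22 of 27 lower. For 50 of the 72 genes all 6 supplemented arrays lay below all 6 regular arrays, against 9.92% of all genes and 762 of 2719 in the brightest 25%. The difference between the subunits was not tested.

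**Figure D3:**
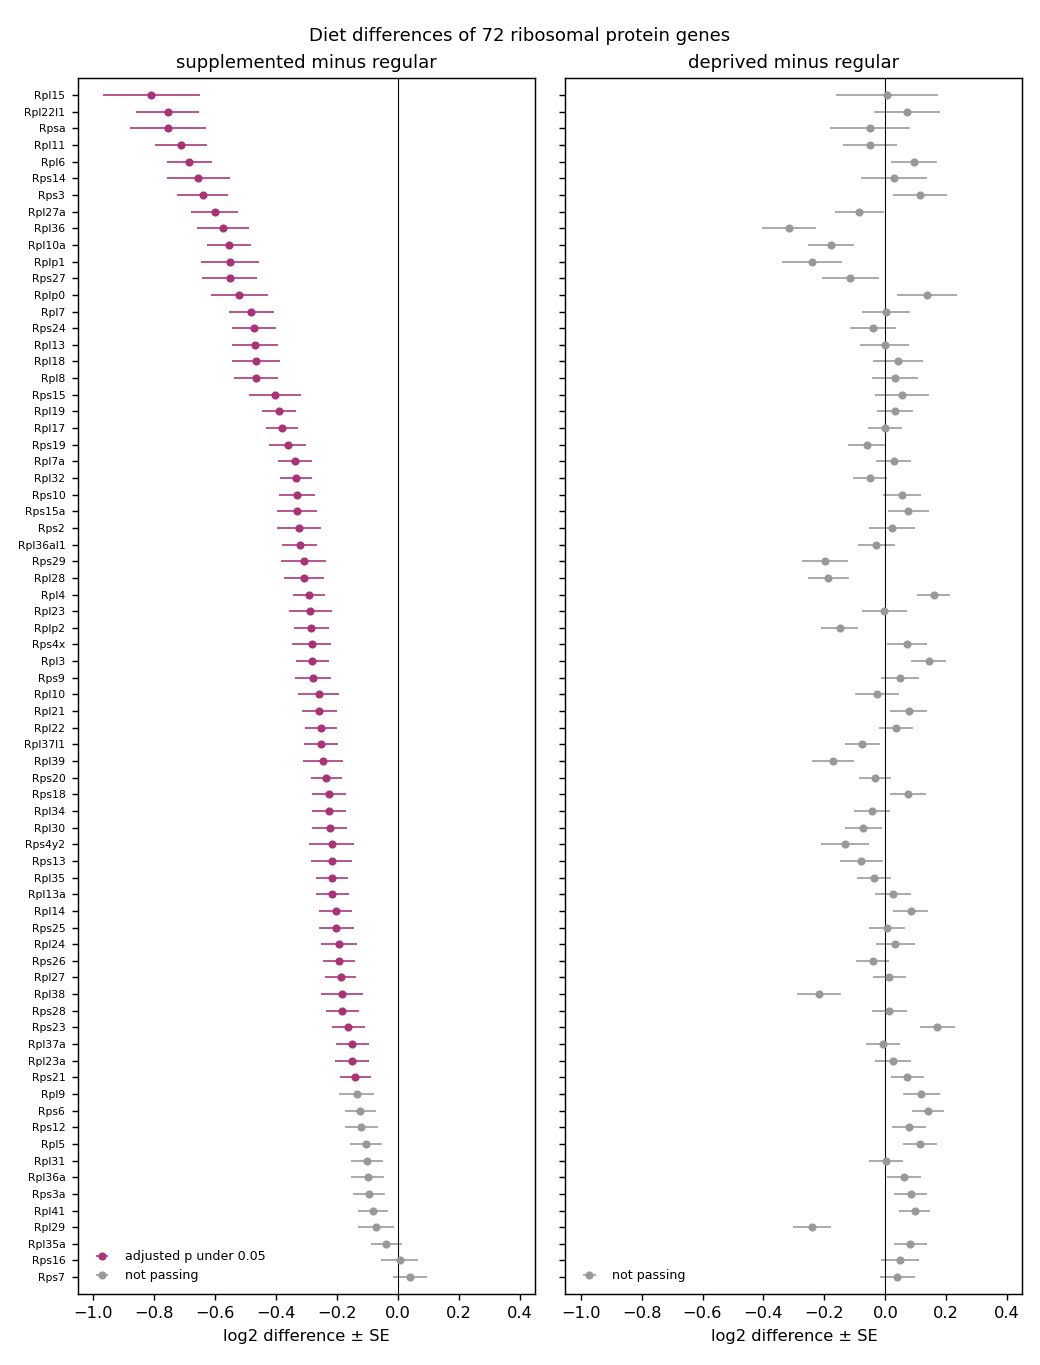
Difference from the regular diet (log2, with its standard error) of each of the 72 genes on the supplemented diet (left) and the deprived diet (right), ordered by the left panel; coloured points passed the adjusted threshold. On the left 60 genes are lower, down to -0.81 for Rpl15; on the right none passed.

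Among large subunit genes, Rpl15, which is mutated in some families with the red cell disorder Diamond-Blackfan anaemia, fell furthest. Its log2 values were 8.98, 8.77, 8.78, 8.68 and 8.63 on the deprived diet, 8.49 to 9.03 with a median of 8.71 on the regular diet and 7.20 to 8.30 with a median of 8.23 on the supplemented diet. The supplemented arrays lay below all others, and replicates 2 and 5, at 7.20 and 7.45, lay well below the rest. The difference from the regular diet was -0.81 ± 0.16 (SE), with a limma adjusted p of 0.00055. With array spread as a covariate it was 0.18, the opposite sign, and did not pass.

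Rpl22 and Rpl22l1 encode paralogous proteins, and Rpl22 is known for its need in the development of alpha beta T cells. Rpl22l1 read 9.71, 9.85, 9.77, 9.77 and 9.65 on the deprived diet, 9.49 to 9.82 with a median of 9.69 on the regular diet and 8.41 to 9.32 with a median of 8.94 on the supplemented diet. It fell by 0.76 ± 0.10 (SE) on the log2 scale (limma adjusted p = 1.34e-05), with no overlap between supplemented and other arrays. Rpl22 read 12.58, 12.60, 12.55, 12.50 and 12.46 on the deprived diet, 12.45 to 12.56 with a median of 12.50 on the regular diet and 12.12 to 12.32 with a median of 12.28 on the supplemented diet. It fell by 0.25 ± 0.05 (SE; limma adjusted p = 0.00096). After quantile and cyclic loess normalization Rpl22 was at -0.11 and -0.027 and did not pass, while Rpl22l1 was at -0.59 in both and passed. The difference between the paralogues was not tested.

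Rpl11 and Rpl5 join 5S ribosomal RNA in a particle that also binds Mdm2, the ligase that keeps p53 low. Rpl11 read 12.16, 12.17, 12.15, 12.01 and 12.07 on the deprived diet, 12.05 to 12.31 with a median of 12.16 on the regular diet and 11.04 to 11.65 with a median of 11.53 on the supplemented diet. It fell by 0.71 ± 0.09 (SE; limma adjusted p = 3.98e-06), without overlap. Rpl5 read 13.03, 13.18, 13.04, 12.96 and 12.94 on the deprived diet, 12.88 to 13.00 with a median of 12.90 on the regular diet and 12.75 to 12.88 with a median of 12.82 on the supplemented diet. The supplemented arrays of Rpl5 lay below all regular arrays, but the difference of -0.10 ± 0.05 (SE) did not pass (limma adjusted p = 0.132). Rpl5 is one of the 4 brightest members, at a mean of 12.91.

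Rpl6, another large subunit gene, read 11.52, 11.52, 11.48, 11.35 and 11.40 on the deprived diet, 11.21 to 11.45 with a median of 11.40 on the regular diet and 10.37 to 10.82 with a median of 10.74 on the supplemented diet. The supplemented arrays lay below all others, while deprived and regular arrays overlapped. The fall from the regular diet was 0.68 ± 0.07 (SE; limma adjusted p = 1.65e-06). Its 3 array rows differed, with falls from 0.68 down to one row at -0.17.

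The acidic stalk, which recruits elongation factors to the ribosome, is formed by Rplp0, Rplp1 and Rplp2. Rplp0 read 10.92, 10.97, 10.88, 10.71 and 10.73 on the deprived diet, 10.58 to 10.85 with a median of 10.71 on the regular diet and 9.78 to 10.44 with a median of 10.28 on the supplemented diet, a fall by 0.52 ± 0.09 (SE; limma adjusted p = 0.000237). Rplp1 fell by 0.55 ± 0.09 (SE; limma adjusted p = 0.00014) and Rplp2 by 0.28 ± 0.06 (SE; limma adjusted p = 0.00061). For each of the 3 stalk genes the supplemented arrays lay below all regular arrays. Rplp0, often used as a reference gene for normalizing expression, was among the genes that differed here, though with the spread covariate its difference was 0.033 and did not pass.

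Of the other genes named by rule, Rpl3, which lies at the peptidyl transferase centre, fell by 0.28, and Rpl4, which lines the exit tunnel, by 0.29. Rpl10, which is added late in assembly and is mutated in some T cell leukaemias, fell by 0.26. Its supplemented arrays, 11.54 to 11.96, overlapped the regular ones, 11.87 to 12.12. Rpl7, Rpl28, Rpl36, Rpl37a, Rpl38, Rpl39 and Rpl23a were also lower, with falls from 0.57 for Rpl36 to 0.15 for Rpl23a. Leaving out 1 array ended the call of Rpl23a in 11 of 17 runs, of Rpl38 in 9 and of Rpl37a in 6.

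**Figure D4:**
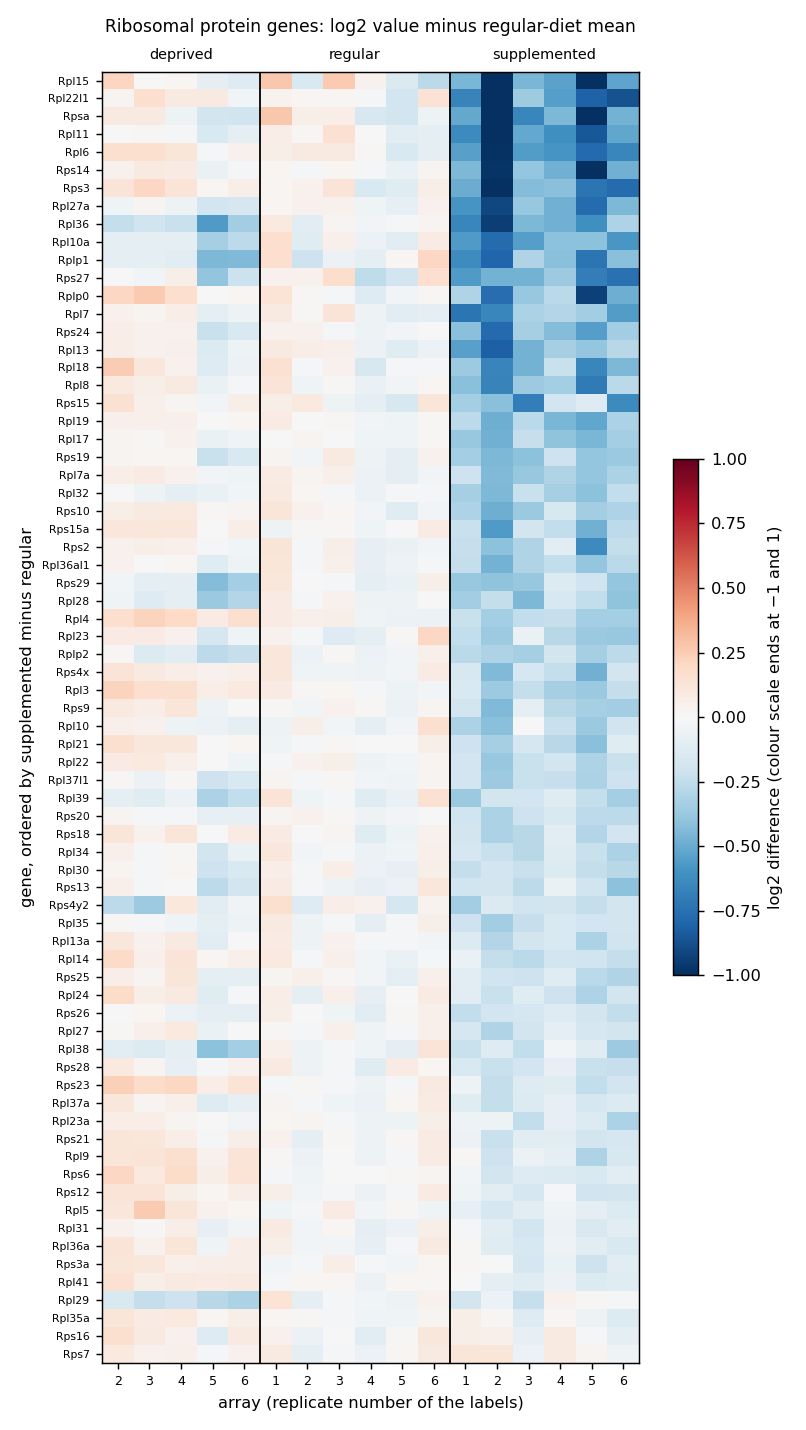
Log2 value minus the regular-diet mean for each of the 72 genes (rows, ordered by the supplemented difference) in each of the 17 arrays (columns), with colours ending at -1 and 1. Supplemented replicates 2 and 5 hold the lowest values of the upper rows, and deprived replicates 5 and 6 are lower than replicates 2 to 4 in 57 rows.

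In the small subunit, Rpsa fell furthest. Its product sits at the head of the subunit and is also known as a laminin receptor. Rpsa read 11.52, 11.52, 11.38, 11.25 and 11.23 on the deprived diet, 11.25 to 11.70 with a median of 11.43 on the regular diet and 10.12 to 10.98 with a median of 10.85 on the supplemented diet. The supplemented arrays lay below all others, and the fall was 0.75 ± 0.12 (SE; limma adjusted p = 9.54e-05). With array spread as a covariate the difference was 0.047, of the opposite sign, and did not pass.

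Rps14, whose loss underlies the anaemia of the 5q deletion syndrome, read 11.93, 11.98, 11.97, 11.82 and 11.87 on the deprived diet, 11.82 to 11.92 with a median of 11.90 on the regular diet and 10.71 to 11.50 with a median of 11.41 on the supplemented diet. It fell by 0.66 ± 0.10 (SE; limma adjusted p = 6.06e-05), without overlap. Rps3, which sits at the mRNA entry site and has a second role in NF-kappaB signalling, fell by 0.64 ± 0.08 (SE; limma adjusted p = 1.06e-05), from 11.71 to 11.99 on the regular diet to 10.86 to 11.44 on the supplemented diet. Rps27, a zinc finger protein, fell by 0.55, and Rps19, the gene most often mutated in Diamond-Blackfan anaemia, by 0.36. Rps15 fell by 0.40, with 1 supplemented array, at 10.91, inside the regular range.

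The small subunit also held the 2 genes whose means were not lower on the supplemented diet. Rps7, another Diamond-Blackfan gene, read 12.33, 12.27, 12.28, 12.22 and 12.27 on the deprived diet, 12.13 to 12.32 with a median of 12.23 on the regular diet and 12.17 to 12.35 with a median of 12.29 on the supplemented diet. The 3 diets overlapped and the difference was 0.04 ± 0.06 (SE; limma adjusted p = 0.584). Rps16, whose product contacts tRNA in the P site, differed by 0.0053 ± 0.06 (SE; limma adjusted p = 0.95), with supplemented arrays from 12.23 to 12.41 and regular arrays from 12.21 to 12.43. After quantile normalization Rps7 and Rps16 were higher on the supplemented than the regular diet, by 0.19 and 0.14. After cyclic loess normalization they were higher by 0.27 and 0.23, as were Rpl35a and Rpl41, by 0.19 and 0.15.

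Rps6, the substrate of the S6 kinases downstream of mTOR, read 12.80, 12.69, 12.77, 12.65 and 12.73 on the deprived diet, 12.55 to 12.62 with a median of 12.59 on the regular diet and 12.41 to 12.56 with a median of 12.45 on the supplemented diet. All deprived arrays lay above all regular arrays, and the supplemented arrays overlapped the regular ones narrowly. Neither difference from the regular diet passed, at 0.14 ± 0.05 (SE; limma adjusted p = 0.174) for the deprived and -0.12 ± 0.05 (SE; limma adjusted p = 0.059) for the supplemented diet.

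The other genes that did not pass between supplemented and regular diets were Rpl9, Rps12, Rpl31, Rpl36a, Rps3a, Rpl41, Rpl29 and Rpl35a, with differences from -0.14 for Rpl9 to -0.04 for Rpl35a. For 5 of the genes not passing, at least 1 other array row did pass as lower in the fit over all rows. The largest such fall was 0.77 for Rpl31, 0.25 for Rpl29, 0.23 for Rps12, 0.20 for Rpl41 and 0.18 for Rpl9. These 12 genes are bright, with means from 11.38 to 12.91. Against the deprived diet, 7 of the 12 were lower on the supplemented diet, by 0.16 to 0.26 on the log2 scale (Rpl5, Rpl9, Rpl36a, Rpl41, Rps3a, Rps6 and Rps12). Rpl29 was higher, and Rpl31, Rpl35a, Rps7 and Rps16 passed in neither comparison.

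Deprived and regular diets differed little. The deprived diet gave 0 called genes among the 72, where 1.67% of all genes passed (0.184% lower and 1.49% higher). At an unadjusted p under 0.05 there were 13 genes (18.1%), 9 lower and 4 higher, close to the 16.7% of all genes under the same limit. Among the brightest 25%, 765 of 2719 genes were under this limit, a larger share than that of the 72. The median over the brightest 25% of genes was 0.083, above the 0.018 of the ribosomal protein genes, a comparison of medians with no test.

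Rpl29, which is also known as a heparin-binding protein, read 11.33, 11.24, 11.27, 11.20 and 11.16 on the deprived diet, 11.39 to 11.62 with a median of 11.46 on the regular diet and 11.25 to 11.52 with a median of 11.44 on the supplemented diet. All deprived arrays lay below all regular arrays. The difference was -0.24 ± 0.06 (SE), just outside the threshold (limma adjusted p = 0.0521). It passed in a fit of only these 2 diets (limma adjusted p = 0.0252), on the same difference. Rpl36 read 12.07, 12.11, 12.09, 11.74 and 11.96 on the deprived diet and 12.20 to 12.41 with a median of 12.31 on the regular diet, again without overlap, a difference of -0.32 ± 0.09 (SE; limma adjusted p = 0.0722). In the fit of only these 2 diets it passed too (limma adjusted p = 0.017).

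Rpl38, known for its role in the translation of Hox mRNAs, was the third gene with all deprived arrays below the regular ones, by 0.22 (limma adjusted p = 0.129). On the higher side, Rpl4, Rpl41 and Rps6 had all deprived arrays above all regular arrays. Their differences were 0.16, 0.10 and 0.14, and none passed. Of all genes tested, 1.01% had all deprived arrays below and 4.52% above all regular arrays, so 3 of 72 above is about the share over all genes. Among the brightest 25%, 18 of 2719 genes lay below and 362 above. The share above was thus larger, and the share below smaller, among bright genes than among the 72, with no test. The largest rise was that of Rps23, a protein of the decoding centre, at 0.17 ± 0.06 (SE; limma adjusted p = 0.128).

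Between the outer diets, 60 of the 72 genes were lower on the supplemented than the deprived diet and 1 was higher, with a median of -0.28. Of all genes, 28.6% were lower and 18.6% higher, and in the brightest 25% 1774 of 2719 were lower. Among the ribosomal protein genes, the 6 largest falls were those of Rpl22l1, at -0.83, Rpl15, Rpl6, Rps3, Rpsa and Rps14, at -0.68. For 48 of the 72 genes all supplemented arrays lay below all deprived arrays, against 17.7% of all genes and 1295 of 2719 in the brightest 25%. The single rise was that of Rpl29, by 0.17 (limma adjusted p = 0.0325), and its groups overlapped. This comparison shares its supplemented arrays with the comparison against the regular diet, so the 2 counts are not independent.

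Over the 3 diets, 66 of the 72 genes passed the moderated F test, against 45.3% of all genes and 1898 of 2719 in the brightest 25%. The diet means fell in order from 0 through 2 to 10 IU for 40 of the 72 genes and rose in order for 0. They fell in order for 29.8% of all genes and for 1636 of the 2719 in the brightest 25%. The share of the 72 genes was thus not above that of bright genes. For the other ribosomal protein genes the deprived mean lay below the regular mean, or the supplemented mean did not lie lowest.

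The fall on the supplemented diet depended on how the arrays were scaled. Quantile normalization of the deposited values left 30 of the 72 genes lower and 2 higher, with a median of -0.12, where 15.8% of all genes were lower. Cyclic loess, which removes differences that vary with signal, left 23 lower and 4 higher, with a median of -0.056, where 16% of all genes were lower. Against the deprived diet, quantile normalization left 23 lower and 4 higher and cyclic loess 16 lower and 13 higher, with a median of 0.011. Over all genes 19.4% were lower after quantile normalization, and 19.9% were lower and 12.6% higher after cyclic loess. Against the deprived diet Rpl30, Rpl36a, Rpl37a, Rpl37l1 and Rps26 passed as lower in the deposited values and as higher after cyclic loess. Against the regular diet, all 23 genes lower under cyclic loess were also lower in the deposited values, as were all 30 under quantile normalization.

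For 22 genes the fall from the regular diet passed in the deposited values, under every alternative except the spread covariate, and with each of the 17 arrays left out. They were Rpl15, Rpl22l1, Rpsa, Rpl11, Rpl6, Rps14, Rps3, Rps27, Rpl27a, Rpl10a, Rpl36, Rplp1, Rplp0, Rpl13, Rpl7, Rpl18, Rps24, Rpl8, Rpl19, Rpl17, Rps19 and Rpl7a. This group was chosen after its values were seen. Under cyclic loess their falls ran from 0.69 for Rpl15 to 0.14 for Rpl7a. How many of all genes pass the same set of runs was not counted. In single runs, 15.8% of all genes were lower under quantile normalization and 16% under cyclic loess.

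**Figure D5:**
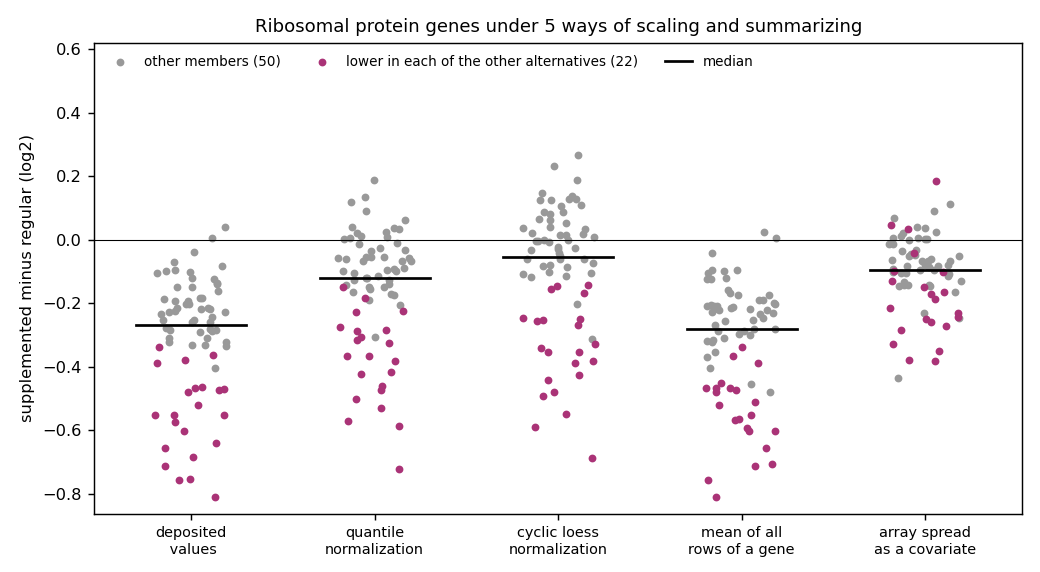
Difference between supplemented and regular diets (log2) of the 72 genes in the deposited values and under 4 alternatives; points are genes, bars are medians. The 22 coloured genes were lower in each alternative run except the spread covariate, and the medians moved from -0.27 in the deposited values to -0.12, -0.056, -0.28 and -0.094.

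The genes also varied together between arrays of the same diet. After the diet means were subtracted, each gene was correlated over the 17 arrays with the mean of the other ribosomal protein genes. The median correlation was 0.70 and 57 genes lay over 0.5. Over all genes the median was 0.10 and the 75th percentile 0.39. The share of all genes over 0.5 was not counted, and bright genes were not compared separately. The mean of the ribosomal protein genes also moved with array spread (r = 0.84). Whether this covariation is particular to these genes was therefore not tested. Among the ribosomal protein genes, the highest correlation was that of Rpl36al1, at 0.92. The 5 lowest were Rps4y2 at -0.05, Rps15 at 0.13, Rps3a at 0.16, Rpl23a at 0.17 and Rpl29 at 0.24. These are descriptions with no p, since the arrays share their normalization and the genes their arrays.

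Rps4y2 stood apart in signal, with a mean of 6.10, the lowest of the 72 and the only one outside the brightest 25%. Its fall of 0.22 passed (limma adjusted p = 0.0292), with supplemented arrays from 5.87 to 6.07 overlapping the regular ones from 6.04 to 6.38. Leaving out 1 array ended this call in 6 of 17 runs. The brightest was Rps28, at a mean of 13.15, with a fall of 0.18. Array signals of different genes depend on their probes, so this order is not an order of mRNA amounts.

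Most of these genes are represented by more than 1 array row, as ribosomal protein genes have many processed copies in mammalian genomes, and rows of a gene and its copies can share probe sequence. Whether the rows here do was not tested. Of the 262 rows, 210 were lower on the supplemented than the regular diet, 0 were higher and 52 did not pass, in a fit over all 29214 rows that was added after the data had been seen, where 12.9% of all rows were lower. Among the 55 genes with several rows, differences between rows spanned a median of 0.072, and under 0.1 in 32 genes. The span was over 0.25 in Rpl31, Rpl13, Rpl6, Rps10 and Rps4x. For Rpl31 the chosen row, at a mean of 12.47, differed by -0.10 and did not pass, whereas a dimmer row, at 9.60, fell by 0.77.

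Genes that work with the ribosome were counted in lists. Rack1, a scaffold on the small subunit, fell by 0.54, and Fau, which encodes a small subunit protein fused to a ubiquitin-like one, by 0.18 in the deposited values, where cyclic loess gave it a difference of 0.036. Of 15 other translation genes with 5' TOP mRNAs, 13 were lower and 0 higher, with a median of -0.39. Among them the nascent chain factor Btf3 fell by 0.79 and the elongation factor subunit Eef1b2 by 0.78. The 2 that did not pass were Tpt1, at -0.15, and Eef1a1, at -0.03. Of 42 ribosome assembly factors 31 were lower and 0 higher, with a median of -0.34. They included Ltv1, a factor of small subunit export, which fell by 0.87, the box H/ACA protein Nhp2, which fell by 0.68, and the rRNA methyltransferase Fbl (fibrillarin), which fell by 0.66. Under quantile normalization 22 of the 42 assembly factors were lower and Nop10 was higher. Cyclic loess left 7 of the 15 TOP genes lower and Eef1a1 higher. Of all genes, 15.8% were lower under quantile normalization and 16% under cyclic loess. With the spread covariate 0 of the 15 and 0 of the 42 passed, as did 0 of all genes.

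Of 14 genes for ribosomal RNA synthesis 7 were lower and 0 higher, where 22.9% of all genes were lower and 10.8% higher. The means of these 7 ran from 7.185 to 9.447. Outside the ribosomal protein genes, 23.7% of genes with a mean of 7 to 8 were lower, 45.8% at 8 to 9 and 53.7% at 9 to 10. The RNA polymerase I subunits Polr1f and Polr1d were among the 7, with falls of 0.49 and 0.47. Under quantile normalization 5 of the 14 were lower and Taf1d was higher, where 15.8% of all genes were lower. With the spread covariate the median of the 14 was 0.12 and 0 of them passed, as did 0 of all genes. Of 18 genes in the growth control of ribosome synthesis 4 were lower and 0 higher, about the 22.9% of all genes that were lower. These were Rheb, the GTPase that activates mTOR, which fell by 0.48, the translation inhibitor Pdcd4, by 0.39, the kinase Rps6kb2, by 0.27, and the transcription factor Myc, by 0.26. Rps6kb2 did not pass after quantile (limma adjusted p = 0.115) or cyclic loess normalization (limma adjusted p = 0.103). Of 9 genes of p53 and ribosomal stress, Ccng1, Cdkn1a, Gadd45a and Pmaip1 were lower, while Zmat3 and Mdm4 were higher. Cdkn1a, the cell cycle inhibitor, fell by 0.28 and Zmat3, an RNA-binding p53 target, rose by 0.30. Under quantile and under cyclic loess normalization 3 of the 9 were lower and 3 higher (Zmat3, Mdm4 and Bbc3). Of all genes, 15.8% and 16% were lower and 9.68% and 8.69% higher in the same settings. Against the regular diet, the deprived diet gave 1 call over all these lists, a rise of Zmat3 by 0.27 (limma adjusted p = 0.0292).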

How the data were processed

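RNA of 17 samples was hybridized to Affymetrix whole-transcript arrays, 250 ng per sample, per the labels. The authors deposited log2 values made with RMA in Partek 6.0, per the submitters' processing notes. RMA already normalizes between arrays. Their range is that of log2 data, which is how the base was settled. No scan date was at hand to test batches, and the sources used here name no probe file. Precision is limited by the number of arrays.

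A platform annotation gave 1 symbol to 15310 rows, several to 323 and none to 13581, and names were updated through RefSeq (GRCr8), which lacked the identifiers of 2 members. The row with the highest mean stood for a gene, and the lowest 25% of 14506 genes (mean under 5.321) were left out. The 3 diets entered a single linear model (limma 3.58.1, R 4.3.3; lmFit and eBayes with 14 residual and 8.19 prior degrees of freedom), which was tested on simulated data. Benjamini-Hochberg adjustment ran over 10879 genes in each of 3 contrasts, with 0.05 as the threshold. The labels call the replicates biological but do not say whether a sample is 1 rat or a pool, and p-values reflect only the variation among these samples. No pair of arrays was identical (correlations 0.9773 to 0.9954).

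The members and lists were chosen with earlier results of these data known. Genes named in the text were the 6 lowest and 6 highest differences per contrast, those not passing and those passing as higher. The 6 highest could include falls. Also named were the 4 brightest and 4 dimmest, the 5 least correlated with the rest, paralogues, 11 genes of known interest and up to 4 per list. Others that are named were chosen after their values were seen. Promoters came from RefSeq, and a 9-letter YY1 sequence was searched.

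Alternatives were quantile and cyclic loess normalization, median centring, no filter or a 50% filter on dim genes, the mean of a gene's rows, array spread as a covariate, a variance trend with robust moderation, the replicate number as a block, only 2 diets in a fit, leaving out supplemented replicates 2 and 5 or each array, and, added after the data had been seen, all rows tested.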

Additional observations from a re-analysis of the deposited data

How the results depend on the processing

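The direction of the ribosomal protein genes between supplemented and regular diets held in their median under every alternative run, but the number of calls did not. Against 60 genes lower, quantile normalization gave 30, cyclic loess 23 and the spread covariate 0 (15.8%, 16% and 0% of all genes), with medians of -0.12, -0.056 and -0.094, and median centring gave a median of -0.35. Leaving out each array gave 54 to 60 genes and medians of -0.28 to -0.24, where 19.8% to 23.7% of all genes were lower. Leaving out supplemented replicates 2 and 5 together gave 52, where 16% of all genes were lower. Between supplemented and deprived diets, against 60 lower, the same 3 settings gave 23, 16 and 0 (19.4%, 19.9% and 0% of all genes), with medians of -0.091, 0.011 and -0.035, and median centring gave -0.39, while it moved the median of all genes to -0.10. Leaving out each array gave 55 to 62 genes and medians of -0.30 to -0.26, where 25.5% to 29% of all genes were lower. Among the 3 diets, against 66, they gave 40, 36 and 1 (33.1%, 33.1% and 0.662% of all genes), and leaving out each array 62 to 67. Between deprived and regular diets, against 0, the calls were 1 with quantile normalization (Rpl36; 0.368% of all genes), 3 with cyclic loess (Rpl29, Rpl36 and Rplp2; 0.772%), 1 with the 50% filter (Rpl29; 3.16%), 1 with the spread covariate (Rpl36), 4 with the variance trend (Rpl29 and Rpl36 lower, Rps6 and Rps23 higher; 1.9%), 2 with only 2 diets in the fit (Rpl29 and Rpl36; 4.28%) and 2 without supplemented replicates 2 and 5 (Rpl29 and Rpl36; 2.77%). Leaving out each array gave 0 to 1 calls and medians of -0.0038 to 0.035. The numbers of the replicates did not pair the samples, since same-numbered arrays deviated together with correlations of -0.21 to 0.19. With the replicate block 56 genes were lower between supplemented and regular diets (22.7% of all genes) and 59 between supplemented and deprived (29.7%). In that fit 0 differed between deprived and regular diets, where 0.239% of all genes were lower and 1.09% higher. Between supplemented and regular diets the sign changed for 12 of the 72 genes under quantile normalization, 23 under cyclic loess and 13 with the spread covariate, of which 3, 13 and 9 had passed in the deposited values. Of the genes chosen for naming, those that had passed and changed sign, or passed with the opposite sign, were the following. Under quantile normalization Rpl23a was at 0.033 and Rps23 at 0.012. Under cyclic loess Rpl23a was at 0.065, Rpl35a at 0.19, Rpl37a at 0.0795, Rpl38 at 0.038, Rpl41 at 0.15, Rps23 at 0.061, Rps28 at 0.051 and Fau at 0.036. With the spread covariate Rpl15 was at 0.18, Rplp0 at 0.033, Rps23 at 0.0024, Rpsa at 0.047, Fau at 0.042 and Polr1h at 0.20. Between supplemented and deprived diets 17, 35 and 22 of the 72 genes changed sign in the same 3 settings, of which 9, 27 and 16 had passed. Among the largest falls of that comparison, Rpl15 was at 0.48, Rps14 at 0.037 and Rpsa at 0.34 with the spread covariate. At its upper end, Rps16 and Rpl39 had small differences in the deposited values, -0.043 and -0.072, that did not pass. Rps16 passed as higher at 0.15 under quantile normalization and at 0.26 under cyclic loess, and Rpl39 at 0.22 under cyclic loess. Of the 60 genes lower than on the regular diet, leaving out 1 array ended the call of 6. Rpl23a lost it in 11 of 17 runs (deprived replicates 3 to 6, supplemented 3, 5 and 6, regular 1, 2, 3 and 6), Rpl38 in 9 (supplemented 1, 2, 3 and 6, regular 1, 2, 3, 4 and 6), Rps21 in 9 (deprived 4 and 6, supplemented 2, 5 and 6, regular 1, 3, 5 and 6), Rpl37a in 6 (supplemented 2 and 5, regular 1, 2, 5 and 6), Rps4y2 in 6 (supplemented 1 and 5, regular 1, 3, 4 and 6) and Rps23 in 3 (supplemented 2 and 5, regular 6). The cause of these changes was not tested. Dixon's test was run in each diet on 41 named ribosomal protein genes and on the mean of the 72. Of these 126 groups of values, 0 had an array apart. The test looks for a single array and cannot flag 2 low arrays together, such as supplemented replicates 2 and 5.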
